A study of Mus musculus with 6 samples.

Results

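The 31 genes described here make, regulate, take up, store and export cholesterol. They were chosen by symbol, by a rule that uses no measured value, but with earlier results of these data known. All 31 were found among the 17759 genes listed in at least 1 library. Of them 19 encode enzymes of cholesterol synthesis, 4 the SREBP2 control system, 4 proteins that move or store cholesterol inside the cell, and 4 the efflux side under the liver X receptors. Their levels were measured by bulk RNA sequencing in regulatory T (Treg) cells of C57BL/6 mice aged 8 weeks, in 2 genotypes and 3 cell states with 1 library per group. The knockout (KO) is MondoAfl/flFoxp3Cre, in which the gene of the glucose-responsive transcription factor MondoA (Mlxip) is floxed, and the wild type (WT) is MondoA+/+Foxp3Cre. Mice of both genotypes carry Foxp3Cre, so the recombinase acts only where Foxp3 is or was expressed. The first state is stimulated nTreg cells, which were kept for 48 hours on plates coated with anti-CD3 at 5 µg/ml, with soluble anti-CD28 at 2 µg/ml and IL-2 at 100 U/ml. In the iTreg state, naive CD4+ T cells sorted as YFP-negative, CD44-low and CD62L-high were polarized for 4 days. Resting nTreg cells, sorted as CD4+CD25hiYFP+ from spleens and lymph nodes, are the third state. The iTreg cultures began from YFP-negative cells and no later sort is stated, so the share of cells in which Mlxip was deleted is not known from the labels. No label says that the libraries came from separate animals or cultures, so p-values measure only the spread between these samples, which may be technical. Each group has 1 library, so in the model used below a genotype difference that varies between states also counts as spread. How many animals were pooled is not given in the sources used here.

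Cells make cholesterol from acetyl-CoA through mevalonate, farnesyl pyrophosphate, squalene and lanosterol. When membrane sterol is low, the escort protein SCAP carries SREBP2 out of the endoplasmic reticulum, SREBP2 is cleaved, and its released part switches on the synthesis genes; INSIG proteins hold SCAP back when sterol is plentiful. When oxysterols accumulate, the liver X receptors switch on exporters such as ABCA1 and ABCG1. T cells that start to divide are known to raise SREBP2 activity and to restrain the liver X receptor side.

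The libraries held 9760285 to 10185664 expected counts each. Mlxip was lower in every KO library, at 12.0 against 21.2 FPKM (fragments per kilobase of transcript, scaled to the library total) in KO and WT stimulated cells, 9.30 against 23.9 in KO and WT iTreg cells and 15.4 against 20.1 in KO and WT resting cells; which exons were floxed is not given. The iTreg pair carried a trend with transcript length, described below. With it removed, the log2 ratio of Mlxip in KO over WT iTreg cells moved from -1.24 to -0.73. Txnip, a direct MondoA target, fell by a log2 fold of 2.15 in KO cells over the 3 states (edgeR adjusted p = 0.00171). Foxp3 lay between 122.1 and 206.9 FPKM in all 6 libraries, while Ikzf2, a marker of thymus-derived Treg cells, had 1.34 FPKM in KO and 3.57 in WT iTreg cells and 36.0 to 61.0 in the nTreg libraries. Markers of other cells were present too. The summed level of 6 B cell genes was 24.3 FPKM in KO and 18.5 in WT stimulated cells, 27.7 in KO and 7.59 in WT iTreg cells, and 78.2 in KO and 44.1 in WT resting cells. The sum of 8 myeloid genes was 15.8 FPKM in KO and 23.2 in WT stimulated cells, 4.10 in KO and 3.15 in WT iTreg cells, and 61.1 in KO and 63.9 in WT resting cells. Of the 8, 4 had no row in the table of KO iTreg cells and 2 none in that of WT iTreg cells, with Csf1r in neither. The sum of 5 CD8 T and NK cell genes was 28.1 FPKM in KO and 25.2 in WT stimulated cells, 110.0 in KO and 63.3 in WT iTreg cells, and 19.5 in KO and 24.4 in WT resting cells. Of these 5 genes, 2 had 0 counts in KO stimulated and in WT iTreg cells, and 1 in WT stimulated and in KO iTreg cells. All 5 had counts in both resting libraries. Cd8a and Cd8b1 alone had 33.2 and 50.9 FPKM in KO iTreg cells and 18.0 and 31.1 in WT iTreg cells. B cell and myeloid sums were thus lower in the cultured cells. The CD8 and NK sum was higher there, though only slightly in WT stimulated cells. The part of all these markers in the results below was not tested. In bulk RNA, fewer cells of a type and less RNA per cell cannot be told apart.

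The members differ widely in level. On the FPKM scale, which divides by transcript length, Abca1 was the lowest, at 0.28 to 2.99 FPKM over the 6 libraries, and Fdps the highest in any library, at 123.7 FPKM in KO iTreg cells. Every member had at least 29 counts in every library, and all 31 passed the filter on low counts. Summed over the 19 synthesis genes, the level was 560.1 FPKM in KO and 451.4 in WT stimulated cells, 564.0 in KO and 493.4 in WT iTreg cells, and 214.2 in KO and 222.9 in WT resting cells. Summed over the 4 efflux genes it was 61.2 FPKM in KO and 63.0 in WT stimulated cells, 133.5 in KO and 114.3 in WT iTreg cells, and 79.6 in KO and 88.9 in WT resting cells. The synthesis total was thus about as high in stimulated as in iTreg cells and lowest in resting cells, while the efflux total was highest in iTreg cells and lowest in stimulated cells. Nr1h2, a receptor gene, made up most of the efflux total in every library. It had 91.5 FPKM in KO and 64.5 in WT iTreg cells, while Abca1, Abcg1 and Mylip were each lower in KO than in WT iTreg cells.

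**Figure D1:**
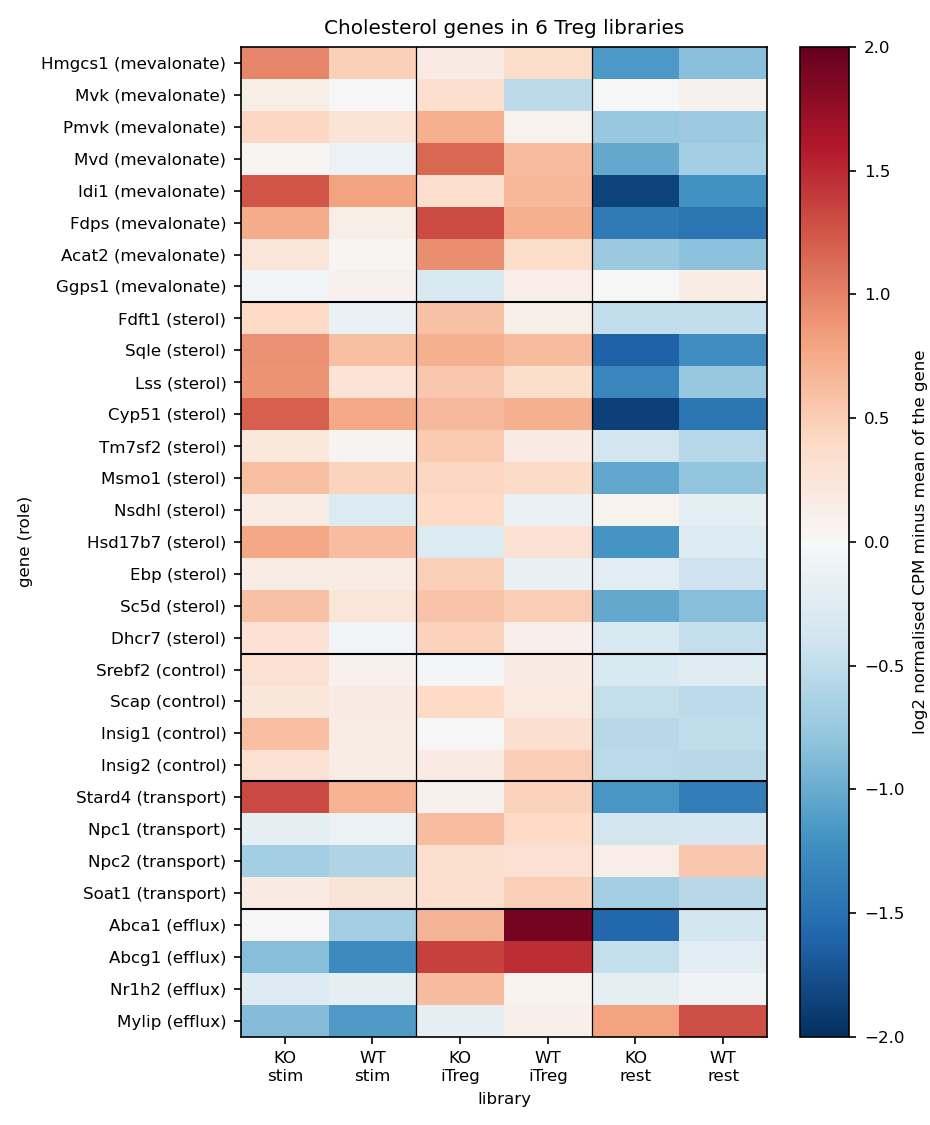
Log2 normalised CPM (counts per 1000000 counts of the library) of the 31 genes (rows, grouped by role) in the 6 libraries (columns, KO left of WT within each state), as the difference from the mean of each gene over the 6 libraries. Most synthesis genes sit below their mean in both resting libraries; Mylip sits above it there, and Abca1 and Abcg1 are highest in the iTreg libraries.

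SREBP2 acts through short sterol regulatory elements that lie beside boxes for the factor NF-Y, so the promoters of 4 genes are shown: Cyp51, Idi1 and Hmgcs1, synthesis genes that rose after stimulation, and Mylip, the member that fell most. Each line runs 5′ to 3′ along the gene's strand, from 250 bases before to 50 after the annotated start in RefSeq on GRCm38.p6. Capitals mark matches on either strand to TCACNCCAC, the core of the sterol regulatory element, or to CCAAT, the NF-Y box, which reads ATTGG on the other strand.
Cyp51: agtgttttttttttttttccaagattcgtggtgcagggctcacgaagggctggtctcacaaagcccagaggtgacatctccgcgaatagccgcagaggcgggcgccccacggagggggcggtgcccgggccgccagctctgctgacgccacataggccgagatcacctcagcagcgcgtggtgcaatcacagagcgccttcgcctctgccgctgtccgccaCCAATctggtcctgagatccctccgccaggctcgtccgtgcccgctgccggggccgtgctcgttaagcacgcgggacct
Idi1: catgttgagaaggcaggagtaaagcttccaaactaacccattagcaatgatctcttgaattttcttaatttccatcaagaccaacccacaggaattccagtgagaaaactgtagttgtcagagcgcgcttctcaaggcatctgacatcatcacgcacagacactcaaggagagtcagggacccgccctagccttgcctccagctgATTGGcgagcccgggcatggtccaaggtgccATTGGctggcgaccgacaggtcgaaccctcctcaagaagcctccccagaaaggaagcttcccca
Hmgcs1: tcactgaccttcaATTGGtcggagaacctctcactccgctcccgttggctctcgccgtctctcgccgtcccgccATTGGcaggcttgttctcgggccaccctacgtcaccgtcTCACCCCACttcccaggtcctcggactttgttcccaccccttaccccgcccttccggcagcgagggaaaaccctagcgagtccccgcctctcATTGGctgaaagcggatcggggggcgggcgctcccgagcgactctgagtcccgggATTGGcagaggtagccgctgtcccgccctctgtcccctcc
Mylip: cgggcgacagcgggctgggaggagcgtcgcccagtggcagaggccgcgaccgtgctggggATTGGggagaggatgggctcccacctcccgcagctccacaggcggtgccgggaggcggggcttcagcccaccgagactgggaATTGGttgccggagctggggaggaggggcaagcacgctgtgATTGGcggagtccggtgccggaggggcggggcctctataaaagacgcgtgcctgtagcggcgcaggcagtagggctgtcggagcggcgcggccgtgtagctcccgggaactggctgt
The windows lie at chr5:4104648-4104947 (minus strand), chr13:8885356-8885655 (plus strand), chr13:119690101-119690400 (plus strand) and chr13:45389492-45389791 (plus strand). Hmgcs1 holds the core TCACNCCAC at 137 bases before the start and 4 NF-Y boxes, Mylip holds 3 boxes, Idi1 holds 2 and Cyp51 holds 1. RefSeq windows were matched for 25 of the 31 genes, all but Fdps, Fdft1, Sqle, Stard4, Npc1 and Abcg1. Of the 25, 21 held an NF-Y box, among them 15 of the 16 synthesis genes with a window, against 41.1% of all genes with a window. The core TCACNCCAC was in 1 of the 25, Hmgcs1, against 1.44% of all genes. Only exact matches were counted, so an element that differs from these letters would not be marked, and a window without a match may still hold one. The E-box CACGTG, a motif that MondoA and many other factors bind, was in 6 of the 25 (Abca1, Dhcr7, Hsd17b7, Insig1, Sc5d and Scap), against 8.09% of all genes. The motifs do not overlap each other in these windows, and a match is a description of the letters, not of binding.

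The first comparison set the 2 stimulated nTreg libraries against the 2 resting ones, with genotype as a covariate in a model over all 6 libraries. After stimulation, 14 of the 19 synthesis genes rose and none fell, 3 of the 4 control genes rose, and of the 4 efflux genes 2 fell and none rose. Over all 31 members, 19 rose and 3 fell by edgeR's quasi-likelihood test with Benjamini-Hochberg adjustment at a threshold of 0.05, against 24.1% of the 12848 genes tested that rose and 22.3% that fell. The median log2 fold was 1.07 over the synthesis genes and -0.40 over the efflux genes, beside 0.00 over all genes tested. In normalised CPM, both stimulated libraries lay above both resting ones for 16 of the 19 synthesis genes, all 4 control genes and 3 of the 4 transport genes, as for 41.2% of all genes, and below both for Npc2, Abcg1 and Mylip, as for 39.9% of all genes.

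In the mevalonate segment, Hmgcs1, the cytosolic synthase of HMG-CoA, had 48.5 FPKM in KO and 35.3 in WT stimulated cells, 27.7 in KO and 33.3 in WT iTreg cells, and 12.2 in KO and 14.7 in WT resting cells. Both stimulated libraries lay above both iTreg libraries, which lay above both resting ones, and the rise over resting cells was 1.73 on the log2 scale (standard error 0.232, adjusted p = 0.000381). Idi1, the isomerase that makes dimethylallyl pyrophosphate, had 71.3 FPKM in KO and 53.6 in WT stimulated cells, 37.5 in KO and 49.2 in WT iTreg cells, and 9.08 in KO and 13.8 in WT resting cells, a rise of 2.56 on the log2 scale (standard error 0.268, adjusted p = 9.21e-05). Fdps, which makes farnesyl pyrophosphate, had 84.1 FPKM in KO and 56.0 in WT stimulated cells, 124 in KO and 85.9 in WT iTreg cells, and 20.7 in KO and 19.04 in WT resting cells, a rise of 1.86 on the log2 scale (standard error 0.211, adjusted p = 0.000147). In Idi1 and Fdps too, both resting libraries were far below the other 4. Acat2, the cytosolic thiolase that starts the pathway, had 13.8 FPKM in KO and 12.2 in WT stimulated cells, 22.0 in KO and 15.6 in WT iTreg cells, and 7.65 in KO and 6.97 in WT resting cells (log2 fold 0.91, standard error 0.213, adjusted p = 0.00726). Pmvk, phosphomevalonate kinase, had 22.0 FPKM in KO and 20.4 in WT stimulated cells, 27.1 in KO and 18.2 in WT iTreg cells, and 10.7 in KO and 10.7 in WT resting cells (log2 fold 1.07, standard error 0.236, adjusted p = 0.00524), and Mvd, the decarboxylase after it, had 18.0 FPKM in KO and 16.8 in WT stimulated cells, 39.2 in KO and 28.4 in WT iTreg cells, and 9.31 in KO and 11.7 in WT resting cells (log2 fold 0.78, standard error 0.238, adjusted p = 0.0241). For these 3 genes no stimulated library overlapped the resting ones, but the distance was smaller than for Idi1 and Fdps. Mvk, mevalonate kinase, had 8.34 FPKM in KO and 7.83 in WT stimulated cells, 9.68 in KO and 5.57 in WT iTreg cells, and 8.43 in KO and 8.71 in WT resting cells, and its stimulated and resting libraries differed little (log2 fold -0.01, standard error 0.278, adjusted p = 0.976). Ggps1, which leads off to protein prenylation as the geranylgeranyl pyrophosphate synthase, lay between 11.3 and 16.9 FPKM in all 6 libraries and did not pass (log2 fold -0.07, standard error 0.192, adjusted p = 0.786).

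In the sterol segment, Sqle, the squalene epoxidase that controls entry to the sterol rings, had 35.7 FPKM in KO and 29.5 in WT stimulated cells, 30.9 in KO and 30.5 in WT iTreg cells, and 6.73 in KO and 8.52 in WT resting cells, a rise of 2.17 on the log2 scale (standard error 0.219, adjusted p = 7.48e-05). Cyp51, the lanosterol demethylase, had 57.5 FPKM in KO and 43.8 in WT stimulated cells, 39.5 in KO and 43.2 in WT iTreg cells, and 7.60 in KO and 9.79 in WT resting cells. Its rise, 2.63 on the log2 scale (standard error 0.237, adjusted p = 3.95e-05), was the largest of the 31 members. Both enzymes were several-fold higher in every cultured library than in either resting one. Lss, which forms the sterol rings from squalene epoxide, had 9.06 FPKM in KO and 6.07 in WT stimulated cells, 7.13 in KO and 6.52 in WT iTreg cells, and 2.18 in KO and 3.09 in WT resting cells (log2 fold 1.59, standard error 0.273, adjusted p = 0.00144). Msmo1, the methylsterol monooxygenase, had 34.1 FPKM in KO and 31.5 in WT stimulated cells, 30.2 in KO and 30.6 in WT iTreg cells, and 12.0 in KO and 13.9 in WT resting cells (log2 fold 1.42, standard error 0.196, adjusted p = 0.00044), and Sc5d, the sterol desaturase, had 44.0 FPKM in KO and 35.6 in WT stimulated cells, 43.6 in KO and 43.3 in WT iTreg cells, and 15.8 in KO and 17.3 in WT resting cells (log2 fold 1.34, standard error 0.197, adjusted p = 0.000604). Hsd17b7, a sterol ketoreductase, had 6.91 FPKM in KO and 6.38 in WT stimulated cells, 3.35 in KO and 5.22 in WT iTreg cells, and 1.96 in KO and 3.57 in WT resting cells (log2 fold 1.41, standard error 0.276, adjusted p = 0.00286). Both stimulated libraries were above all others, while its KO iTreg library lay close to the WT resting one, below it in FPKM and just above it in normalised CPM (16.1 and 16.0). Fdft1, squalene synthase, rose by a smaller fold, with 19.2 FPKM in KO and 13.7 in WT stimulated cells, 22.1 in KO and 16.6 in WT iTreg cells, and 11.4 in KO and 11.2 in WT resting cells (log2 fold 0.60, standard error 0.201, adjusted p = 0.0338), and so did Dhcr7, the reductase of the last step, with 21.6 FPKM in KO and 17.5 in WT stimulated cells, 24.4 in KO and 19.9 in WT iTreg cells, and 15.7 in KO and 13.6 in WT resting cells (log2 fold 0.49, standard error 0.181, adjusted p = 0.0487). Ebp, a sterol isomerase, had 32.9 FPKM in KO and 33.9 in WT stimulated cells, 41.1 in KO and 27.8 in WT iTreg cells, and 28.0 in KO and 23.8 in WT resting cells (log2 fold 0.46, standard error 0.206, adjusted p = 0.0938) and did not pass. Nsdhl, a sterol dehydrogenase, at 11.9 to 18.3 FPKM, and Tm7sf2, a sterol reductase, at 2.62 to 5.24 FPKM, did not pass either (log2 fold -0.01, standard error 0.191, adjusted p = 0.962 and log2 fold 0.59, standard error 0.304, adjusted p = 0.14).

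Among the control genes, Insig1, an SREBP2 target whose protein retains SCAP, had 44.7 FPKM in KO and 33.4 in WT stimulated cells, 29.5 in KO and 38.2 in WT iTreg cells, and 22.0 in KO and 22.0 in WT resting cells (log2 fold 0.91, standard error 0.217, adjusted p = 0.00766). Insig2, its relative, had 6.85 FPKM in KO and 6.38 in WT stimulated cells, 6.34 in KO and 8.26 in WT iTreg cells, and 4.29 in KO and 4.12 in WT resting cells (log2 fold 0.77, standard error 0.239, adjusted p = 0.026). Scap had 37.2 FPKM in KO and 36.7 in WT stimulated cells, 41.9 in KO and 38.0 in WT iTreg cells, and 24.8 in KO and 23.7 in WT resting cells (log2 fold 0.69, standard error 0.177, adjusted p = 0.0111). For Scap and Insig2 both stimulated and both iTreg libraries lay above both resting ones. Srebf2, the gene of SREBP2 itself, lay between 74.5 and 103.9 FPKM in all libraries and did not pass (log2 fold 0.47, standard error 0.198, adjusted p = 0.0788). Of the transport genes, Stard4, a cytosolic sterol carrier and SREBP2 target, had 35.7 FPKM in KO and 23.9 in WT stimulated cells, 15.1 in KO and 20.5 in WT iTreg cells, and 6.99 in KO and 5.86 in WT resting cells, a rise of 2.29 on the log2 scale (standard error 0.255, adjusted p = 0.000131). Soat1, which esterifies cholesterol for storage, had 10.6 FPKM in KO and 11.6 in WT stimulated cells, 12.0 in KO and 13.8 in WT iTreg cells, and 6.48 in KO and 6.85 in WT resting cells (log2 fold 0.82, standard error 0.180, adjusted p = 0.00529). Npc2, which hands cholesterol to NPC1 in the lysosome, was lower after stimulation, at 45.9 FPKM in KO and 50.2 in WT stimulated cells, 92.2 in KO and 95.3 in WT iTreg cells, and 88.8 in KO and 115 in WT resting cells (log2 fold -0.996, standard error 0.197, adjusted p = 0.00301). Npc1, the lysosomal membrane protein that receives it, had 12.7 FPKM in KO and 13.8 in WT stimulated cells, 22.2 in KO and 19.9 in WT iTreg cells, and 12.3 in KO and 12.3 in WT resting cells (log2 fold 0.19, standard error 0.181, adjusted p = 0.427) and did not pass in this comparison.

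On the efflux side, Mylip, an LXR-induced ubiquitin ligase that degrades lipoprotein receptors, had 3.33 FPKM in KO and 2.91 in WT stimulated cells, 5.32 in KO and 6.91 in WT iTreg cells, and 11.7 in KO and 16.0 in WT resting cells. The 2 resting libraries were the highest, the 2 iTreg libraries came next and the 2 stimulated ones were lowest, and Mylip fell against resting cells (log2 fold -2.05, standard error 0.245, adjusted p = 0.000192). Abcg1, an exporter of sterol to lipoprotein particles, had 7.54 FPKM in KO and 5.80 in WT stimulated cells, 35.5 in KO and 39.9 in WT iTreg cells, and 10.8 in KO and 12.4 in WT resting cells and fell after stimulation (log2 fold -0.71, standard error 0.211, adjusted p = 0.0208). Abca1, which loads cholesterol onto apolipoproteins, had 0.76 FPKM in KO and 0.49 in WT stimulated cells, 1.21 in KO and 2.99 in WT iTreg cells, and 0.28 in KO and 0.63 in WT resting cells and did not pass (log2 fold 0.68, standard error 0.462, adjusted p = 0.255). Its 2 stimulated libraries stood on either side of the WT resting one. Nr1h2, the gene of the liver X receptor LXR-beta, at 49.6 to 91.5 FPKM, did not pass either (log2 fold -0.09, standard error 0.214, adjusted p = 0.744).

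Of the 22 stimulation calls, 12 held under all 13 alternatives tried: Hmgcs1, Idi1, Fdps, Sqle, Lss, Cyp51, Msmo1, Hsd17b7, Sc5d, Stard4, Npc2 and Mylip. The other 10 were lost when 1 library was left out, in fits with 1 residual degree of freedom, and 5 of them also in fits to all 6 libraries. Dhcr7 missed in every alternative fit to all libraries but that with the length trend removed (adjusted p 0.058 to 0.128), and Fdft1 missed with DESeq2, with limma on log2 FPKM at either pseudocount and without the covariate (0.0643 to 0.0917). Insig2 missed with DESeq2 and with both limma fits (0.0523 to 0.0866), and Mvd (0.0668) and Insig1 (0.0504) with limma on log2(FPKM + 0.1). Without the KO resting library Pmvk (log2 fold 0.86, adjusted p = 0.0653), Acat2 (0.75, 0.109), Mvd (0.45, 0.356) and Fdft1 (0.35, 0.466) did not pass. Mvd and Fdft1 also missed without the KO stimulated library (0.77, 0.0708 and 0.47, 0.304) and without the WT stimulated library (0.80, 0.0619 and 0.75, 0.0666), and Insig1 without the KO stimulated library (0.58, 0.191). Abcg1 missed without the WT stimulated library (-0.42, 0.369) and without the WT resting library (-0.52, 0.215). Dhcr7, Scap and Insig2 missed without any 1 of the 4 libraries compared, with adjusted p-values of 0.178 to 0.403, 0.0744 to 0.138 and 0.0517 to 0.267, and Soat1 missed without any of them but the WT stimulated one (0.0528 to 0.0616). Conversely, Srebf2 (0.47) and Ebp (0.46) passed without either iTreg library and with the length trend removed, and Abca1 passed without the WT stimulated library (1.58, adjusted p = 0.00257) or the WT resting library (1.12, adjusted p = 0.0375). Without the KO stimulated library the fold of Abca1 turned to -0.32 (adjusted p = 0.661).

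**Figure D2:**
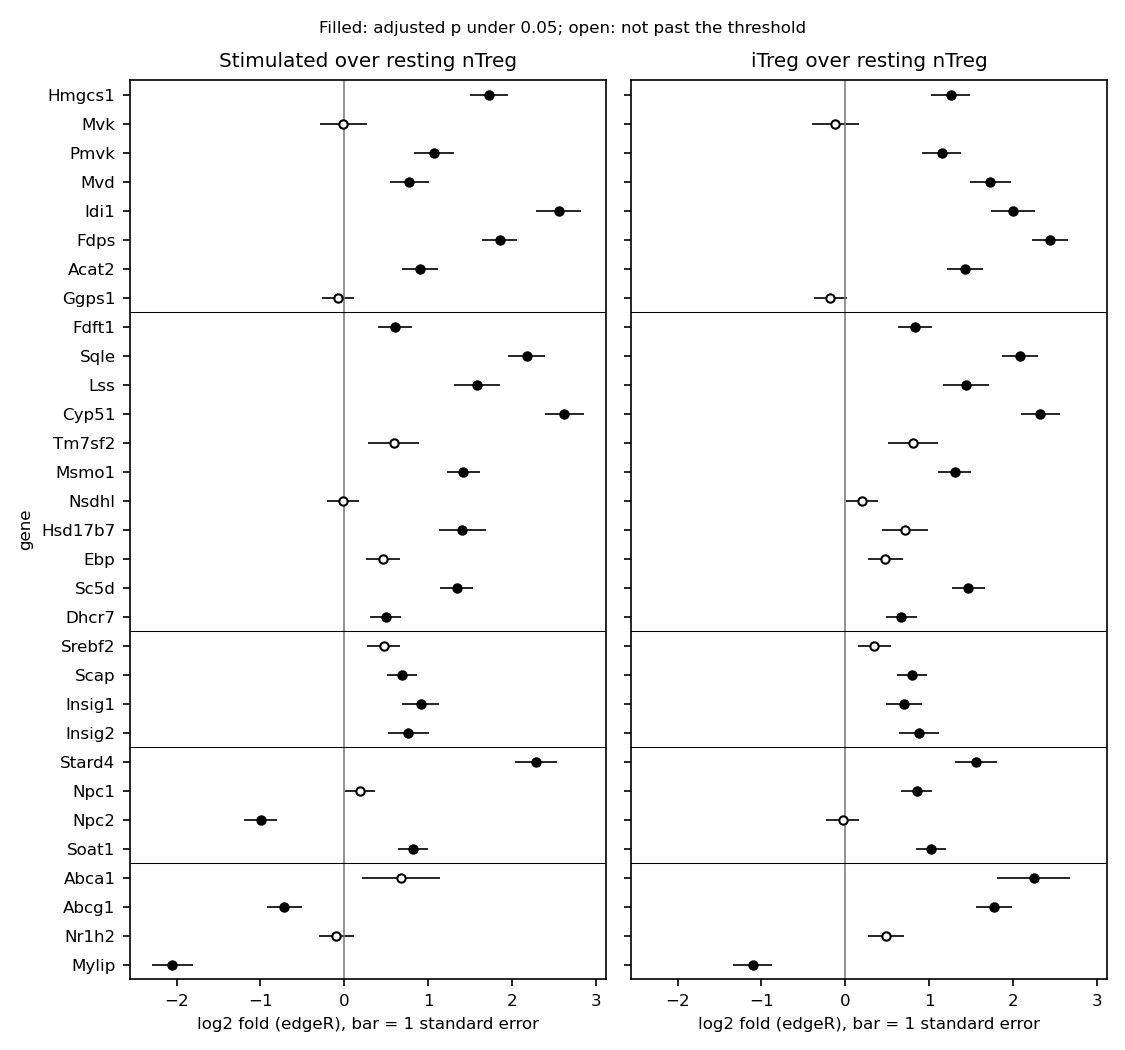
Log2 folds of the 31 genes (rows, grouped by role) in the model over 6 libraries, for stimulated over resting nTreg cells (left) and iTreg over resting nTreg cells (right); bars are 1 standard error and filled points passed an adjusted p of 0.05. Most synthesis genes lie right of 0 in both panels, Abcg1 lies left of 0 after stimulation and right of it in iTreg cells, and Mylip lies left of 0 in both.

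The second comparison set the iTreg libraries against the same 2 resting nTreg libraries. Here 13 of the 19 synthesis genes rose and none fell, and on the efflux side Abca1 and Abcg1 rose while Mylip fell. Of all 31 members 21 rose and 1 fell, against 23.9% of genes tested that rose and 23.8% that fell. The median log2 fold was 1.26 over the synthesis genes and 1.13 over the efflux genes, beside -0.01 over all genes. In normalised CPM, both iTreg libraries lay above both resting ones for 16 synthesis, 4 control, 3 transport and 3 efflux genes, as for 35.4% of all genes, and below both for Mylip, as for 36.3%. iTreg and resting nTreg cells also differ in origin, culture and time, so these cannot be told apart here.

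Fdps had the largest rise of the synthesis genes in iTreg cells (log2 fold 2.44, standard error 0.214, adjusted p = 2.92e-05), followed by Cyp51 (log2 fold 2.33, standard error 0.234, adjusted p = 6.31e-05), Sqle (log2 fold 2.08, standard error 0.218, adjusted p = 7.94e-05) and Idi1 (log2 fold 2.00, standard error 0.262, adjusted p = 0.000294). Mvd rose by 1.73 on the log2 scale (standard error 0.240, adjusted p = 0.000407), Acat2 by 1.42 on the log2 scale (standard error 0.213, adjusted p = 0.000623) and Hmgcs1 by 1.26 on the log2 scale (standard error 0.229, adjusted p = 0.00188). Sc5d, Msmo1, Pmvk, Lss, Fdft1 and Dhcr7 rose as well, by log2 folds of 1.46, 1.30, 1.15, 1.44, 0.83 and 0.67. The synthesis genes that did not pass were Mvk, Ggps1, Tm7sf2, Nsdhl, Hsd17b7 and Ebp, with log2 folds from -0.18 (Ggps1) to 0.72 (Hsd17b7, adjusted p = 0.0562) and 0.81 (Tm7sf2, adjusted p = 0.051). The control genes Insig1, Insig2 and Scap rose by 0.70, 0.88 and 0.80, and Srebf2 did not pass (0.35, adjusted p = 0.176). Among the transport genes Stard4 rose by 1.56 on the log2 scale (standard error 0.252, adjusted p = 0.00098), Soat1 by 1.02 on the log2 scale (standard error 0.180, adjusted p = 0.00155) and Npc1 by 0.85 on the log2 scale (standard error 0.182, adjusted p = 0.00428), while Npc2 did not pass (log2 fold -0.03, standard error 0.194, adjusted p = 0.904). Abca1 rose by 2.25 on the log2 scale (standard error 0.440, adjusted p = 0.00275) and Abcg1 by 1.78 on the log2 scale (standard error 0.211, adjusted p = 0.00017). Abcg1 stood at 35.5 FPKM in KO and 39.9 in WT iTreg cells, with no other library above 12.4. Mylip fell (log2 fold -1.10, standard error 0.233, adjusted p = 0.00401), and Nr1h2 did not pass (log2 fold 0.49, standard error 0.214, adjusted p = 0.0883).

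Of the 22 iTreg calls, 17 held under all 13 alternatives. Fdft1 (log2 fold 0.62, adjusted p = 0.167) and Scap (0.78, 0.0646) missed without the KO resting library, and Dhcr7 and Insig1 without either resting library (0.0691 to 0.178 and 0.0687 to 0.112). Insig1 (0.42, 0.111) and Insig2 (0.67, 0.0571) also missed without the WT iTreg library, and Insig2 without the WT resting library (0.83, 0.0794). Insig1 also missed in limma fits to all libraries, on log2(FPKM + 1) (0.59, 0.0718) and log2(FPKM + 0.1) (0.61, 0.104). The rise of Abca1 was 1.64 without the WT iTreg library (adjusted p = 0.0292). Hsd17b7 passed without either stimulated library (0.74) or the WT resting one (1.10), and Ebp (0.74) and Nr1h2 (0.81) passed without the WT iTreg library. With all libraries, Tm7sf2 passed with the length trend removed, with no filter and in both limma fits (adjusted p 0.0281 to 0.05), Hsd17b7 with the length trend removed (0.0387) or with no filter (0.0441), and Ebp (0.0321) and Nr1h2 (0.0359) with the length trend removed.

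The third comparison set iTreg against stimulated nTreg cells, the 2 cultured states. Few synthesis genes differed: 1 of 19, Mvd, rose and none fell, with a median log2 fold of 0.02 beside -0.05 over all genes. On the efflux side 3 of the 4 genes rose, with a median of 1.26, which was 0.70 without the WT stimulated library and 1.93 without the KO stimulated one. Over all 31 members 6 rose and none fell by edgeR, against 6.81% of genes tested that rose and 7.62% that fell; 11 members had an unadjusted p under 0.05. DESeq2 called 6 members, edgeR without the covariate 4, limma on log2(FPKM + 1) 3 and limma on log2(FPKM + 0.1) 2.

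Abcg1 rose by 2.49 on the log2 scale (standard error 0.218, adjusted p = 0.000159), and this call held under all 13 alternatives. Abca1 rose by 1.57 on the log2 scale (standard error 0.434, adjusted p = 0.0409) and Mylip by 0.95 on the log2 scale (standard error 0.245, adjusted p = 0.031). Npc2 (log2 fold 0.96, standard error 0.196, adjusted p = 0.0109) and Npc1 (log2 fold 0.67, standard error 0.181, adjusted p = 0.038), the pair that exports lysosomal cholesterol, both rose, and Mvd rose by 0.95 on the log2 scale (standard error 0.232, adjusted p = 0.0239). For all 6 genes both iTreg libraries lay above both stimulated ones. In normalised CPM this also held for Nr1h2, Acat2 and Soat1, where 25.5% of all genes tested had both iTreg libraries above both stimulated ones. Hmgcs1, Idi1, Cyp51, Msmo1, Hsd17b7 and Stard4 had both iTreg libraries below both stimulated ones, where 31.7% of all genes did, and none of these 6 passed the test (log2 folds from -0.73 for Stard4 to -0.12 for Msmo1).

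Leaving out 1 library ended 5 of these 6 calls, all but that of Abcg1. With all libraries, Abca1 and Mylip missed in both limma fits (adjusted p 0.0916 to 0.127 and 0.0593 to 0.079) and without the covariate (0.0783 and 0.0518), Npc1 in both limma fits (0.0682 to 0.099) and Mvd in limma on log2(FPKM + 0.1) (0.0924). Abca1 missed without the WT stimulated library (log2 fold 0.68, adjusted p = 0.397) and without the WT iTreg library (1.05, 0.149), and reached 2.58 without the KO stimulated library. Mylip missed without the WT stimulated library (0.63, 0.329). Npc2 missed without the WT (0.91, 0.101) or KO (1.02, 0.0684) stimulated library. Npc1 missed without the KO stimulated (0.58, 0.405), WT stimulated (0.75, 0.156) or KO iTreg (0.52, 0.0736) library, and Mvd without the KO stimulated (0.97, 0.0636), WT stimulated (0.94, 0.0558) or KO iTreg (0.62, 0.0926) library. Idi1 (-0.996) and Hsd17b7 (-1.12) passed as lower without the WT stimulated library, and Stard4 without any 1 of 4 libraries (WT stimulated -1.09, WT iTreg -1.15, KO resting -0.70, WT resting -0.74). Without the WT iTreg library Fdps (0.69), Acat2 (0.71) and Nr1h2 (0.90) passed as higher.

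Some of these values may hold reads of other genes, since the strandedness of the libraries is not given in the sources used here. On GRCm38 the exons of Fdft1 share 774 bases (18.3%) with those of Ctsb on the other strand, Tm7sf2 shares 532 bases (12.1%) with Vps51 on its own strand, Npc1 shares 511 with Rmc1, Ggps1 257 with Arid4b and Cyp51 166 with Akap9, the last 3 on the other strand. Fdps shares 1124 bases (26.7%) with the predicted gene Gm43738 on its own strand, for which no counts were used here. Acat2 has a near-identical copy, Acat3, with 326 to 1101 counts per library, and Idi1 a paralog, Idi2, with 0 to 80, so the split of reads between them is uncertain.

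The fourth comparison asked whether MondoA deletion changed these genes in a way shared by the 3 states. No member passed by edgeR, where 0.171% of genes tested (22 of 12848) did. Fdps (log2 fold 0.43, standard error 0.167) and Nsdhl (0.40, 0.156) had an unadjusted p under 0.05, and both had an adjusted p of 0.617. DESeq2 and limma on log2(FPKM + 1) called no member either, with 1 and 2 members at an unadjusted p under 0.05. The median log2 fold was 0.13 over the synthesis genes and -0.10 over the efflux genes, beside 0.02 over all genes. Abca1 had the largest difference of the 31, at -0.61 (standard error 0.364, adjusted p = 0.647). The difference was -1.22 without the KO stimulated library and -1.22 without the WT stimulated library. Both fits draw it from the iTreg and resting pairs only, so they are 1 check and not 2. Only the stimulated pair had more Abca1 in KO cells. With the length trend described below removed, no member passed.

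Within each state the KO library was then set against the WT library. These are differences between 2 libraries with no replicate check, given with 95% intervals that cover counting error only, and counted where they reached 1.5-fold with at least 50 counts in the higher library. In stimulated cells 4 members were past that fold, all higher in KO cells, where 1.58% of genes were higher and 2.07% lower by that rule. They were Fdps (log2 ratio 0.63, 0.49 to 0.77), Lss (log2 ratio 0.62, 0.44 to 0.81), Stard4 (log2 ratio 0.62, 0.49 to 0.76) and Abca1 (log2 ratio 0.67, 0.17 to 1.23). All 4 lay close to the fold limit of 0.58 on the log2 scale: with total counts in place of TMM scaling only Abca1 passed it, and by the ratio of FPKM + 1 no member did. The smaller differences pointed the same way. Of the 19 synthesis genes 18 had a TMM-scaled log2 ratio above 0 in stimulated cells, Ebp by only 0.0017, against 55.9% of all genes, with a median log2 ratio of 0.32 beside 0.03 over all genes. Under total-count scaling it was 17 of 19 with a median of 0.27, where all genes had a median of -0.02. Over all 31 members 15 intervals lay above 0 and none below, where 19.9% of genes were above and 11.9% below. Among them were Hmgcs1 (log2 ratio 0.50, 0.39 to 0.60), Fdft1 (log2 ratio 0.53, 0.36 to 0.69), Insig1 (log2 ratio 0.46, 0.34 to 0.59), Idi1 (log2 ratio 0.45, 0.36 to 0.55) and Cyp51 (log2 ratio 0.44, 0.35 to 0.52).

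In resting cells the differences leaned the other way. Past the fold were 3 members, all lower in KO cells, where 4.61% of genes were higher and 4.71% lower: Idi1 (log2 ratio -0.63, -0.87 to -0.41), Hsd17b7 (log2 ratio -0.89, -1.29 to -0.52) and Abca1 (log2 ratio -1.15, -1.89 to -0.55). Of the 31 members 22 had a log2 ratio below 0 in resting cells, 13 of them synthesis genes, against 49.2% of all genes. The intervals of 11 members lay below 0 and of 2 above, where 23.0% of genes were below and 22.9% above. All 4 efflux genes were lower in KO resting cells, among them Mylip (log2 ratio -0.49, -0.69 to -0.29) and Abcg1 (log2 ratio -0.25, -0.41 to -0.09). The median over the synthesis genes was -0.15, beside 0.01 over all genes. Under total-count scaling 11 of the 19 synthesis genes were lower, with a median of -0.12 where all genes had 0.04.

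**Figure D3:**
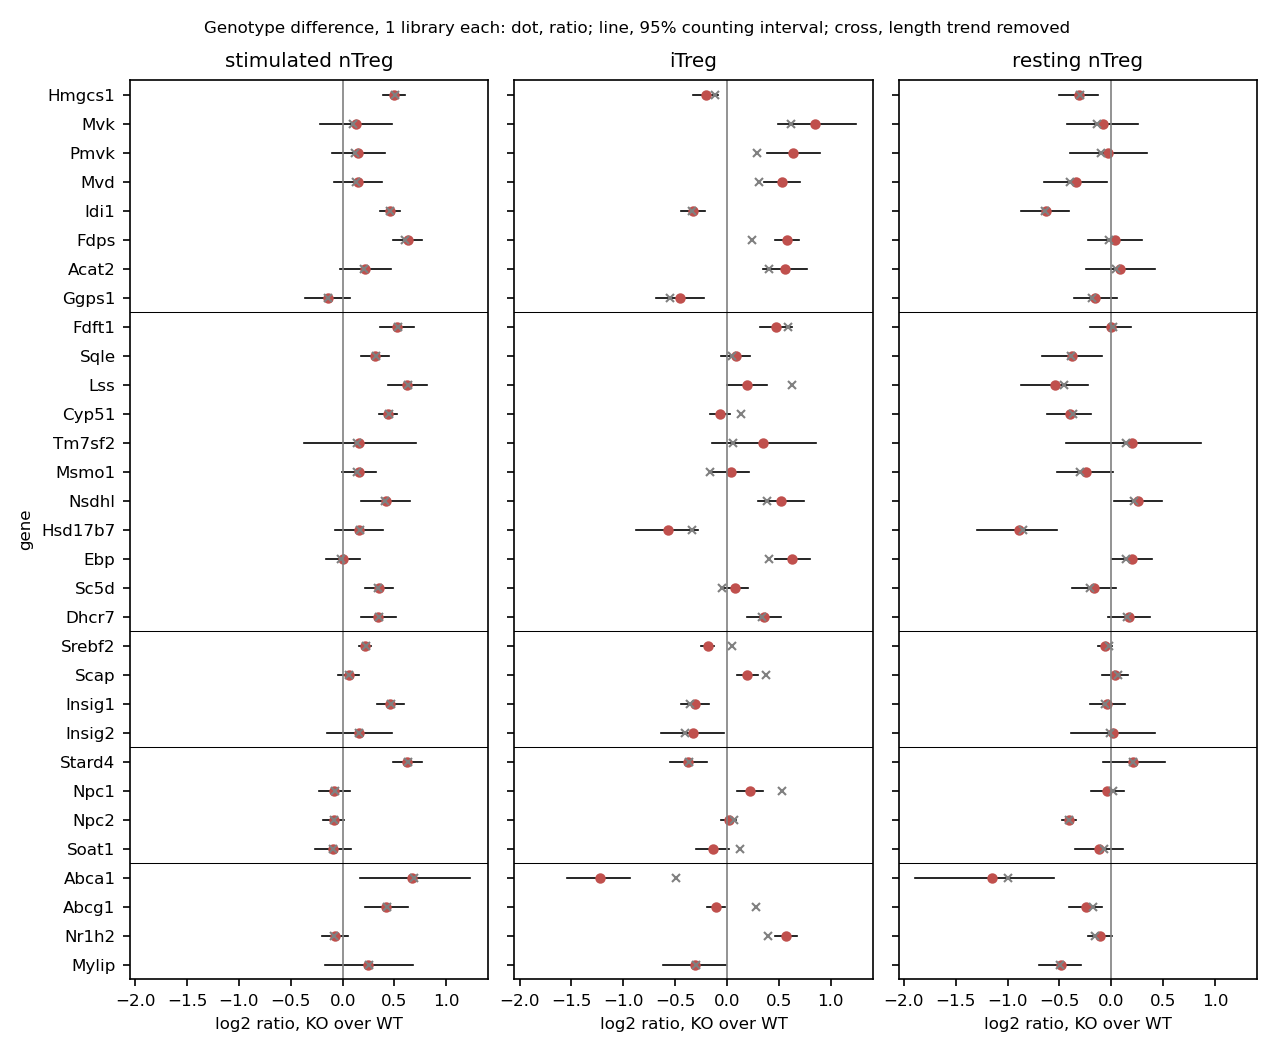
Log2 ratio of KO over WT for the 31 genes (rows, grouped by role) within stimulated nTreg, iTreg and resting nTreg cells, 1 library per group; lines are 95% intervals for counting error only and crosses are the ratios with the length trend removed. The synthesis genes lie mostly right of 0 in stimulated cells, and Abca1 lies right of 0 in stimulated cells and left of it in iTreg and resting cells.

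In iTreg cells the pair differed widely in all genes, so few members stand out. Past the fold were 3 members as higher in KO cells, Mvk (log2 ratio 0.85, 0.49 to 1.25), Pmvk (log2 ratio 0.64, 0.39 to 0.90) and Ebp (log2 ratio 0.63, 0.46 to 0.80), and 1 as lower, Abca1 (log2 ratio -1.22, -1.55 to -0.93), where 13.1% of genes were higher and 14.8% lower. By intervals, 12 members were above 0 and 11 below, against 38.1% and 31.4% of genes. The iTreg pair carried a trend with transcript length: the median log2 ratio of KO over WT was 0.42 over genes under 1500 bases and -0.45 over genes above 5000 bases, against 0.05 and -0.01 in the stimulated pair and 0.06 and -0.09 in the resting pair. With that trend removed, Abca1, whose transcript averages 10260 bases, differed by -0.49, Pmvk by 0.29 and Ebp by 0.40, none past the fold, while Mvk (0.62), Lss (0.63) and Fdft1 (0.59) were past it. The median over the synthesis genes was 0.35, and 0.25 with the trend removed, beside 0.06 and 0.05 over all genes.

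**Figure D4:**
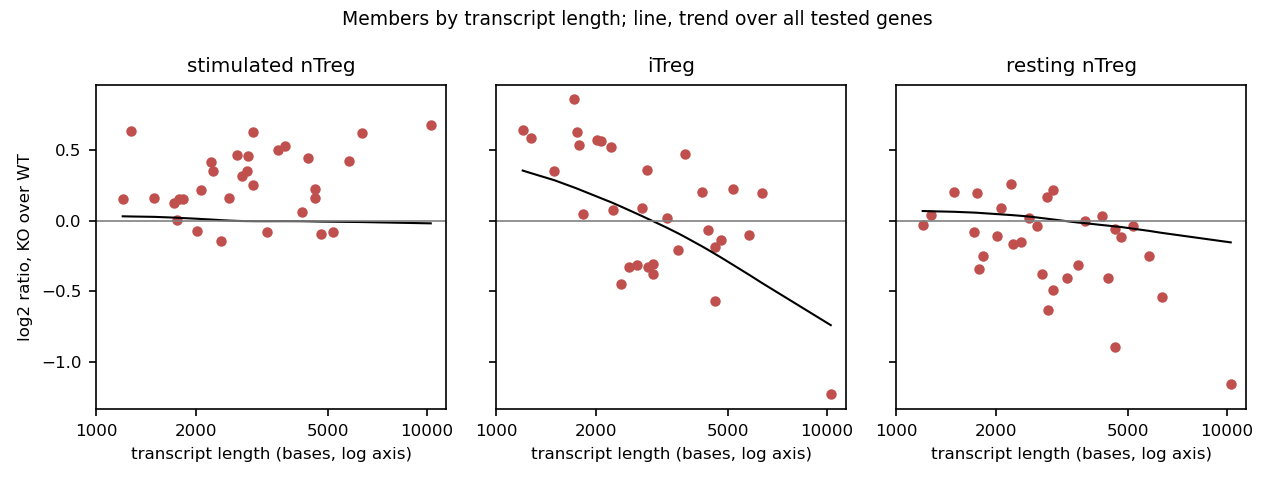
Log2 ratio of KO over WT against mean transcript length (bases, log axis) within each state, with the 31 members as points and a loess curve over all genes tested as the line. The iTreg curve runs from above 0 for short transcripts to below 0 for long ones, the other curves stay close to 0, and Abca1 is the rightmost point.

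Setting the states side by side, the log2 ratios of most synthesis genes over resting cells were larger within the KO than within the WT libraries. With stimulation the median log2 ratio over the 19 genes was 1.17 within the KO libraries and 0.89 within the WT libraries, and the ratio was larger in KO cells for 17 of 19, against 52.2% of all genes (16 of 19 under total-count scaling and 17 with the length trend removed). For Hmgcs1 it was 2.13 in KO and 1.32 in WT cells, for Idi1 3.10 in KO and 2.01 in WT cells, for Cyp51 3.05 in KO and 2.21 in WT cells and for Lss 2.18 in KO and 1.02 in WT cells. At least 2-fold higher after stimulation were 14 members in KO cells and 9 in WT cells, where 18.2% and 15.1% of genes were. At least 2-fold lower were 1 member in KO cells (Mylip) and 3 in WT cells (Npc2, Abcg1 and Mylip), where 15.3% and 12.2% of genes were. With iTreg polarization the ratio was larger in KO cells for 18 of 19 synthesis genes, against 53.8% of all genes, with medians of 1.45 in KO and 1.10 in WT cells (18 and 17 of 19 under the same alternatives). At least 2-fold higher were 16 members in KO and 15 in WT cells, where 17.7% and 14.3% of genes were. Both contrasts rest on the same 2 resting libraries, in which most synthesis genes were lower in KO cells, and the difference between the genotypes was not tested because each group has 1 library. In the model over all 6 libraries such differences count as error.

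Abca1 was past the fold in all 3 genotype pairs, and not in the same direction. It had 81 counts in KO and 51 in WT stimulated cells, 128 in KO and 303 in WT iTreg cells, and 29 in KO and 64 in WT resting cells. KO cells thus held more in the stimulated pair and less in the other 2 pairs. Its stimulation response was 1.52 in KO and -0.30 in WT cells, and its response to iTreg polarization 2.17 in KO and 2.24 in WT cells. Abcg1, the related exporter, had intervals above 0 in the stimulated pair (log2 ratio 0.42, 0.22 to 0.63) and below 0 in the iTreg (log2 ratio -0.10, -0.19 to -0.02) and resting (log2 ratio -0.25, -0.41 to -0.09) pairs, with smaller differences; with the length trend removed the iTreg value was 0.28. B cell and CD8 or NK markers also differed within the iTreg and resting pairs, as given above, and their part in these values was not tested.

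**Figure D5:**
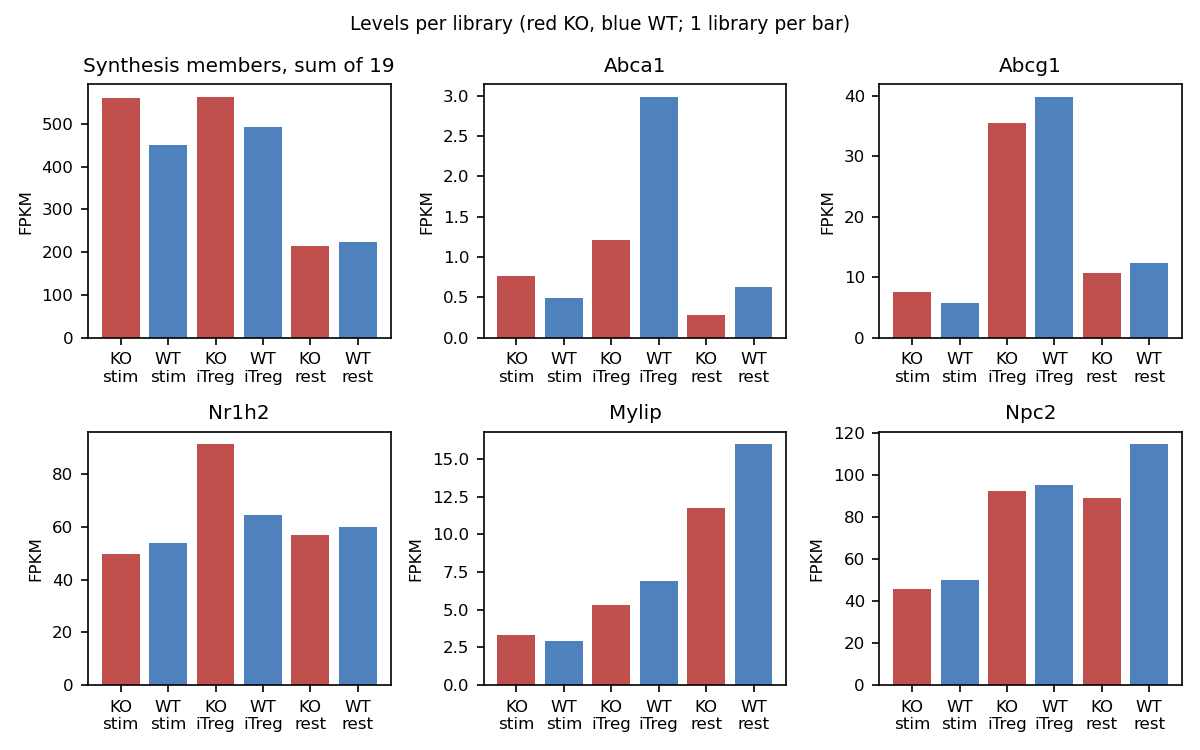
FPKM (linear axes from 0) of the 19 synthesis genes summed and of Abca1, Abcg1, Nr1h2, Mylip and Npc2, 1 bar per library, KO left of WT within each state. Abcg1 stands at 35.5 FPKM in KO and 39.9 in WT iTreg cells and at most at 12.4 elsewhere; Mylip is highest in resting cells.

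Other genes of the pathway were followed in 4 further lists. Of 12 other genes that control SREBPs or sterol enzymes, 5 rose after stimulation and 2 rose in iTreg cells, both against resting cells. Over all genes tested 24.1% rose and 22.3% fell after stimulation, and 23.9% rose and 23.8% fell in iTreg cells. None of the lists was tested as a set. Tmem97, an SREBP2 target that binds NPC1, had 49.1 FPKM in KO and 37.7 in WT stimulated cells, 30.4 in KO and 28.3 in WT iTreg cells, and 4.49 in KO and 5.04 in WT resting cells and rose by 3.26 after stimulation and by 2.69 in iTreg cells. Mbtps2, a protease that frees SREBPs from the membrane, rose by 1.05 and Erlin1, an endoplasmic reticulum protein that binds SREBPs, by 0.97 after stimulation. Srebf1, the gene of SREBP1, rose by 0.82 after stimulation and 1.11 in iTreg cells. Of these calls, Mbtps2 missed without the KO stimulated library (0.73, adjusted p = 0.13), Erlin1 without the KO stimulated (0.91, 0.0686) or WT resting (0.88, 0.0605) library, and Srebf1 without the KO stimulated (0.78, 0.0719) or KO resting (0.75, 0.0827) library. Mbtps2 also missed in limma on log2(FPKM + 0.1) with all libraries (0.0505).

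Of 14 other uptake and transport genes 13 were tested, and 3 rose and 4 fell in each contrast against resting cells. In these contrasts 23.9 to 24.1% of all genes tested rose and 22.3 to 23.8% fell. Scarb1, the receptor for high-density lipoprotein, had 21.6 FPKM in KO and 18.0 in WT stimulated cells, 20.5 in KO and 18.7 in WT iTreg cells, and 2.49 in KO and 3.58 in WT resting cells, and rose by 2.78 after stimulation and by 2.76 in iTreg cells. Lrp8, a lipoprotein receptor, rose by 1.52 after stimulation and by 0.89 in iTreg cells. Lipa, the lysosomal lipase that frees cholesterol from lipoprotein esters, had log2 folds of -1.34 and -1.65, and Gramd1a, which carries cholesterol from the plasma membrane to the endoplasmic reticulum, had -1.28 after stimulation. In iTreg cells Gramd1c had -2.75 and Nceh1, a cholesterol ester hydrolase, -2.17. The fold of Gramd1c rests on few counts, 6 in KO and 8 in WT iTreg cells against 45 in KO and 55 in WT resting cells. All of these passed the test, and only the iTreg call of Lrp8 was lost when 1 library was left out. It missed without the KO resting library, with a log2 fold of 0.69. Both receptors stood higher in all 4 cultured libraries than in the resting ones.

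Of 11 other LXR and oxysterol genes 7 were tested, and 1 rose and 3 fell after stimulation, while 1 rose and 2 fell in iTreg cells. The shares over all genes tested were 24.1% and 22.3% after stimulation and 23.9% and 23.8% in iTreg cells. Gpr183, the receptor that guides cells along oxysterol gradients, had 5.61 FPKM in KO and 7.11 in WT stimulated cells, 0.63 in KO and 1.11 in WT iTreg cells, and 27.1 in KO and 23.0 in WT resting cells, with log2 folds of -1.91 after stimulation and -4.78 in iTreg cells. Lpcat3, a phospholipid-remodelling LXR target, rose by 0.70 and 0.95. Abca7, a transporter related to ABCA1, had -0.60 and Rxrb, a partner of the liver X receptors, -0.53 after stimulation, and Rxra had -0.81 in iTreg cells. After stimulation Abca7 and Rxrb missed without any 1 of the 4 libraries compared (adjusted p 0.0582 to 0.304 and 0.188 to 0.323) and Lpcat3 without the KO stimulated (0.134), WT stimulated (0.0604) or KO resting (0.396) library; in iTreg cells Lpcat3 (0.129) and Rxra (0.102) missed without the KO resting library. With all libraries the stimulation calls of Abca7 (0.0505), Rxrb (0.0504) and Lpcat3 (0.0745) missed in limma on log2(FPKM + 0.1), Lpcat3 also on log2(FPKM + 1) (0.0508), and Rxrb also with no filter (0.0513) and without the covariate (0.0517).

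Farnesyl pyrophosphate also feeds protein prenylation, ubiquinone and dolichol. Of 14 such genes 6 rose and 1 fell after stimulation, and 5 rose in iTreg cells. Among all genes tested 24.1% rose and 22.3% fell after stimulation, and 23.9% rose in iTreg cells. Pdss1, a synthase of the ubiquinone side chain, rose by 2.06 after stimulation and by 1.33 in iTreg cells. Rabggtb, a subunit of the enzyme that prenylates Rab proteins, rose by 1.15 and 0.85. Pggt1b, a subunit of another prenyltransferase, rose by 1.13 and Icmt, which methylates prenylated proteins, by 0.78 after stimulation. Fntb, a farnesyltransferase subunit, rose by 1.88 and Dhdds, a dolichol synthase subunit, by 0.80 in iTreg cells. After stimulation Rabggtb missed without the KO resting library (0.79, adjusted p = 0.0729), Pggt1b without the KO stimulated library (0.61, 0.258) and in limma on log2(FPKM + 0.1) with all libraries (0.0726), and Icmt without the WT stimulated (0.74, 0.0705) or WT resting (0.68, 0.112) library. In iTreg cells Rabggtb missed without the KO iTreg (0.61, 0.0567) or KO resting (0.53, 0.274) library and Dhdds without the WT resting library (0.69, 0.108). In iTreg against stimulated cells no gene of the first list passed. Of the uptake and transport genes 1 rose and 2 fell there, of the LXR and oxysterol genes 2 rose and 2 fell, and of the prenylation genes 1 rose. Over all genes tested 6.81% rose and 7.62% fell. Among these calls Rxra, Rxrb, Abca7 and Fntb missed in limma on log2(FPKM + 0.1) with all libraries. None of the genes of these 4 lists passed in the genotype effect shared by the states. Pathway genes outside the 31 members and these lists were not analysed here.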

How the data were processed

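RNA sequencing was deposited as 1 table per library, with 1 library in each of 6 groups taken from the labels. Per the file headers, the deposited values are expected counts (estimated reads per gene, not normalised), FPKM (scaled to transcript length and library size) and a mean transcript length in bases. Bowtie2, HISAT and mm9 appear in the submitters' processing notes without role or version; the quantifier, annotation and strandedness are not given in the sources used here. Each library held 9760285 to 10185664 expected counts over 15039 to 15624 genes, and a gene missing from a table was taken as 0. Of 17759 gene identifiers 17711 were matched to symbols.

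Expected counts were rounded (75.6 to 76.6% were whole within 0.005 beforehand) and scaled with TMM factors. State and genotype entered a single additive model, fitted to all 6 libraries with edgeR 4.0.16 (R 4.3.3; filterByExpr with 10 counts, 12848 genes left, 2 residual degrees of freedom; quasi-likelihood test, Benjamini-Hochberg adjustment over all genes, threshold 0.05). Pairs of libraries were compared by log2 ratios of CPM (counts scaled to 1000000) with a prior count of 2 and exact conditional 95% intervals, which cover counting error only, and have no p-value. The limits were 1.5-fold for genotype and 2-fold for state, with 50 counts. Alternatives used other scaling, no filter, DESeq2 1.42.0, limma 3.58.1 on log2 FPKM with a pseudocount of 1 or 0.1, no covariate, a loess length correction (span 0.5) and each library left out. Python 3.11.15, pandas 2.3.3, scipy 1.17.1 and matplotlib 3.10.9 were used otherwise. Promoters came from RefSeq on GRCm38.p6 and exon overlaps from GENCODE on GRCm38, and neither was joined to mm9 coordinates.

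The members and lists were chosen with earlier results of these data known. Named were all members, with values in all libraries for those past a threshold. Of each further list, up to 4 genes with the largest absolute log2 fold among those past the threshold were named in each contrast against resting cells. For iTreg against stimulated cells the folds of these lists are not given. One gene of the list of SREBP and sterol enzyme control is not reported here and was left out of its counts.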

Additional observations from a re-analysis of the deposited data

Results flagged for a closer look

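Abca1, the cholesterol exporter, differed in opposite directions between the genotypes in the 3 states. The log2 ratio of KO over WT was 0.67 in stimulated nTreg cells (81 counts in KO, 51 in WT), -1.22 in iTreg cells (128 in KO, 303 in WT) and -1.15 in resting nTreg cells (29 in KO, 64 in WT). The difference between the states was not tested, since each group has 1 library. With the trend with transcript length removed the values were 0.69, -0.49 and -0.996.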

How the results depend on the processing

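Against resting cells the 22 calls of each contrast kept their direction under all 13 alternatives. Leaving out 1 library gave 11 to 21 members higher after stimulation (19 with all libraries), 1676 to 3685 genes lower after stimulation and 1987 to 3198 genes lower in iTreg cells; the median over the synthesis genes after stimulation ranged from 0.86 to 1.30. For iTreg against stimulated cells it gave 1 to 8 members higher and 0 to 3 lower, 549 to 1384 genes higher and 749 to 1770 lower, a synthesis median of -0.13 to 0.23 and an efflux median of 0.70 to 1.93. The efflux median after stimulation ranged from -0.67 without the KO stimulated library to -0.21 without the WT resting one. For the shared genotype effect the efflux median ranged from -0.29 without a stimulated library to 0.05 without the WT resting one, and the synthesis median from 0.10 without an iTreg library to 0.31 without the WT resting one. For iTreg against stimulated cells, limma on log2(FPKM + 1) called 3 members higher and 614 genes lower. In that contrast limma on log2(FPKM + 0.1) called 2 members and 398 genes higher and 460 genes lower, and without the covariate 4 members were higher. For the shared genotype effect (14 genes higher, 8 lower), leaving out 1 library gave 0 to 1 members lower, 13 to 119 genes higher and 21 to 186 lower. The genes higher and lower were 35 and 32 with no filter on low counts, 30 and 37 with DESeq2, 0 and 0 without the covariate, and 3 and 2 with limma on log2(FPKM + 0.1); with limma on log2(FPKM + 1) 5 were higher and with the length trend removed 8 were higher. Members past the 1.5-fold limit in the stimulated pair were 1 higher with total counts and 0 with the ratio of FPKM + 1. In the iTreg pair 1 was higher with either, 2 were lower with total counts and 0 with the length trend removed. In the resting pair 1 was lower with the ratio of FPKM + 1. With iTreg polarization in KO cells 1 member was at least 2-fold lower with total counts and with the ratio of FPKM + 1, against 0. The causes were not tested, beyond the fewer samples where a library was left out.

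No paired analysis was possible because the labels give no replicate numbers and each group has 1 library. Fits without 1 library had 1 residual degree of freedom and assume that the lone sample of a state varies like the others. That lone sample is fitted exactly. For genotype, and for contrasts between the other states, leaving out either library of a state is therefore nearly the same check. Abca1 had the lowest count of any member in a single library, at 29, and reached 303 in another. Tm7sf2 had 38 to 79 counts per library.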
